A study of Mus musculus with 12 samples.

Results

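The signalling axis of the microglial receptor Trem2 was followed across age in RNA from brain myelin. It was taken as 7 genes named by their role out of 21937 genes in the deposited table: the receptor Trem2, its adaptor Tyrobp, the related adaptor Fcer1g, the kinase Syk, the phospholipase Plcg2, the phosphatase Inpp5d and the apolipoprotein Apoe. Of these, 6 were found under their own symbol and 1, Syk, under Sykb, which RefSeq lists as its synonym.

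The samples were light brain membranes enriched for myelin, from male WT mice of the inbred strain c57Bl6/N, and their RNA was sequenced. The 4 ages, with 3 samples each, were P18 and P75 (counted in postnatal days) and then 6 months and 24 months. All groups share this genotype, and the labels name no treatment. The labels do not say whether each sample came from a separate animal or from pooled animals, so the p-values below measure only the spread between these samples, which may be technical. Total reads ran from 20299052 to 27214385 per sample, with 16949 to 17261 genes detected.

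Trem2 is a lipid-sensing receptor of the myeloid surface that in brain is carried by microglia, the resident macrophages. It has no signalling tail of its own and depends on Tyrobp (DAP12), whose ITAM motif, once phosphorylated by Src-family kinases, recruits Syk; Syk in turn acts on Plcg2 and on phosphoinositide 3-kinase. Inpp5d (SHIP1) removes a phosphate from the lipid that this kinase makes and so restrains the pathway. Apoe, a lipid carrier that in brain is made mostly by astrocytes and also by reactive microglia, is a ligand of Trem2, and the axis is known for the microglial response to myelin debris.

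The fraction was not free of other cells' RNA. The 10 oligodendrocyte markers examined summed to 2486150 to 6209200 normalised counts at P18 and to 1286060 to 2383140 at the later ages, Mbp being the largest of them. The 21 microglial identity genes were all present and summed to 9018 to 10860 normalised counts in the P18 samples, 13758 to 15501 in those of P75, 16414 to 18902 in the 6-month samples and 24374 to 30276 in the 24-month samples. The 14 astrocyte markers summed to 132971 to 167441 over the 12 samples and the 10 neuronal markers to 172669 to 223082. In such a mixture, fewer cells of a type and less RNA per cell cannot be told apart.

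For orientation, the 250 bases before the start of 3 of the genes are shown, chosen because Trem2 and Fcer1g rose together at 24 months while Inpp5d did not. Capitals mark GAGGAA, the core of the motif of the myeloid factor PU.1, searched on both strands. On the reverse strand it reads TTCCTC. The windows are RefSeq's on GRCm38.p6, given 5′ to 3′ on the gene's strand, at chr17:48346151-48346400 (plus strand) for Trem2, chr1:171234350-171234599 (minus strand) for Fcer1g and chr1:87620062-87620311 (plus strand) for Inpp5d.
Trem2: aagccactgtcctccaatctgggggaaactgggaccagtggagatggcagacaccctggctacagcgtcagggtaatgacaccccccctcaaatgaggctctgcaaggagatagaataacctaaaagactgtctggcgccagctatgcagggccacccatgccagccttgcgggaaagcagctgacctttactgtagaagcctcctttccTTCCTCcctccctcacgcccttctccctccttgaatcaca
Fcer1g: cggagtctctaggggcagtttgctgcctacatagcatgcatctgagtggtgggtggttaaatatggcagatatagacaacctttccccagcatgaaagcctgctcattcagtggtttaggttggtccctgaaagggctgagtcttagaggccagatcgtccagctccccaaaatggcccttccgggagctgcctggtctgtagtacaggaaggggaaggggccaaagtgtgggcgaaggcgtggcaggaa
Inpp5d: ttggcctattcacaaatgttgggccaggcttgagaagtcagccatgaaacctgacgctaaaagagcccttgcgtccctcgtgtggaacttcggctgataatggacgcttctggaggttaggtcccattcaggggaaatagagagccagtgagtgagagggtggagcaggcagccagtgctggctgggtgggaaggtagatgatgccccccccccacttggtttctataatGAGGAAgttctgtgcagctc
These letters occurred once in the Trem2 window, on the reverse strand, once in the Inpp5d window, on the forward strand, and not in that of Fcer1g. RefSeq windows were at hand for 6 of the 7 genes, 9 windows in all, of which 5 held the letters, against 23.3% of all 32851 windows of that length. Apoe and Syk have more than a single window each, and windows of Apoe overlap in part. The 9 windows are therefore not independent and were not tested against that share. A match describes the sequence only.

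Per kilobase of exon, the members kept 1 order at all 4 ages, Apoe first, then Tyrobp, Fcer1g, Trem2, Inpp5d, Plcg2 and Syk, and at each age none of the 6 neighbouring pairs overlapped in their samples. Apoe averaged 16215, 17786, 21720 and 24356 normalised counts per kb at P18, P75, 6 months and 24 months. Tyrobp averaged 1077, 1471, 1200 and 2834 per kb on the same scale. Fcer1g averaged 446, 618, 497 and 1023, and Trem2 193, 295.5, 332 and 679. The intracellular members were far lower, Inpp5d at 45.4, 30.5, 28.9 and 30.5 per kb, Plcg2 at 20.8, 14.6, 17.1 and 19.8, and Syk at 12.3, 8.34, 9.14 and 10.01. Syk, Plcg2 and Inpp5d rested on 39 to 234 reads per sample. At their mean reads of each age, counting alone gives an error of 6.98% to 14.1%, and more in the samples with the fewest reads. The other members had 191 to 54546 reads per sample and, at their mean reads of each age, a counting error of 0.471% to 7.08%.

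Trem2, the receptor, averaged more at each later age than at the one before, and its last step was the largest. It had 227, 237 and 198 normalised counts in the P18 samples, 329, 343 and 342 in those of P75, 364, 397 and 378 in the 6-month samples, and 686, 778 and 865 in the 24-month samples. No 2 ages overlapped. At 24 months Trem2 averaged 776 ± 89.5 normalised counts, against 379 ± 16.5 at 6 months (SD, n = 3 each), 2.04-fold higher, a log2 fold change of 1.03 ± 0.10 (SE; limma, Benjamini-Hochberg adjusted p = 3.9e-05). Against P18 it was 3.5-fold higher at 24 months (log2 fold change 1.81 ± 0.10, limma adjusted p = 6.99e-10). It also rose at P75 against P18, by 0.62 ± 0.10 on the log2 scale (limma adjusted p = 0.000217). Between 6 months and P75 the difference of 0.17 ± 0.10 did not pass (limma adjusted p = 0.188, 95% confidence interval -0.05 to 0.39).

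Of the 7 members, 3 rose and none fell at 24 months against 6 months, where 19.2% of the 14987 genes tested were called, 10.8% higher and 8.34% lower. The 3 were the receptor and both ITAM adaptors. The number of genes called in this comparison, 2876, was 1279 and 1495 without 6 months replicate 1 or 2, 1510 and 1230 without 24 months replicate 1 or 2, and at most 3966 without any other single sample, while the 3 members passed each time.

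Tyrobp, the adaptor that carries the ITAM, did not follow Trem2 step by step. It had 681, 623 and 518 normalised counts in the P18 samples, 761, 771 and 956 in those of P75, 593, 698 and 740 in the 6-month samples, and 1424, 1618 and 1754 in the 24-month samples. The 24-month samples were above all others, and the 6-month samples lay between 593 and 740, below every P75 sample. At 24 months Tyrobp averaged 1598 ± 166 normalised counts, against 677 ± 75.4 at 6 months (SD, n = 3 each), 2.36-fold higher (log2 fold change 1.24 ± 0.12, limma adjusted p = 3.35e-05). That difference ranked 108 from the top among the 14987 genes by log2 fold change, with Fcer1g at 209 and Trem2 at 215. At P75 Tyrobp rose by 0.45 ± 0.12 on the log2 scale against P18 (limma adjusted p = 0.00793). Its log2 difference of -0.29 ± 0.12 at 6 months against P75 missed the threshold (limma adjusted p = 0.0570) but passed it with quantile normalisation (adjusted p = 0.0480), with only those ages in the model (0.0354), and without any one of P18 replicate 1, P18 replicate 3, P75 replicate 1 or 6 months replicate 3 (0.0271 to 0.0483).

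Fcer1g, the γ chain that serves Fc receptors and several lectins through its own ITAM, had its ages in the same order as Tyrobp. It had 327, 332 and 342 normalised counts in the P18 samples, 456, 462 and 469 in those of P75, 372, 391 and 351 in the 6-month samples, and 636, 785 and 874 in the 24-month samples. No neighbouring ages overlapped. It averaged 765 ± 120 normalised counts at 24 months, against 372 ± 20.1 at 6 months (SD, n = 3 each), 2.04-fold higher (log2 fold change 1.03 ± 0.11, limma adjusted p = 4.3e-05). It rose by 0.47 ± 0.11 on the log2 scale at P75 against P18 (limma adjusted p = 0.00211) and fell by 0.32 ± 0.11 at 6 months against P75 (limma adjusted p = 0.0192). Without 6 months replicate 3 this fall no longer passed (log2 fold change -0.28, adjusted p = 0.0708). Fcer1g was the 1 member of 7 called in that comparison, in which 52.4% of all genes tested were called, 27.1% higher and 25.4% lower.

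**Figure D1:**
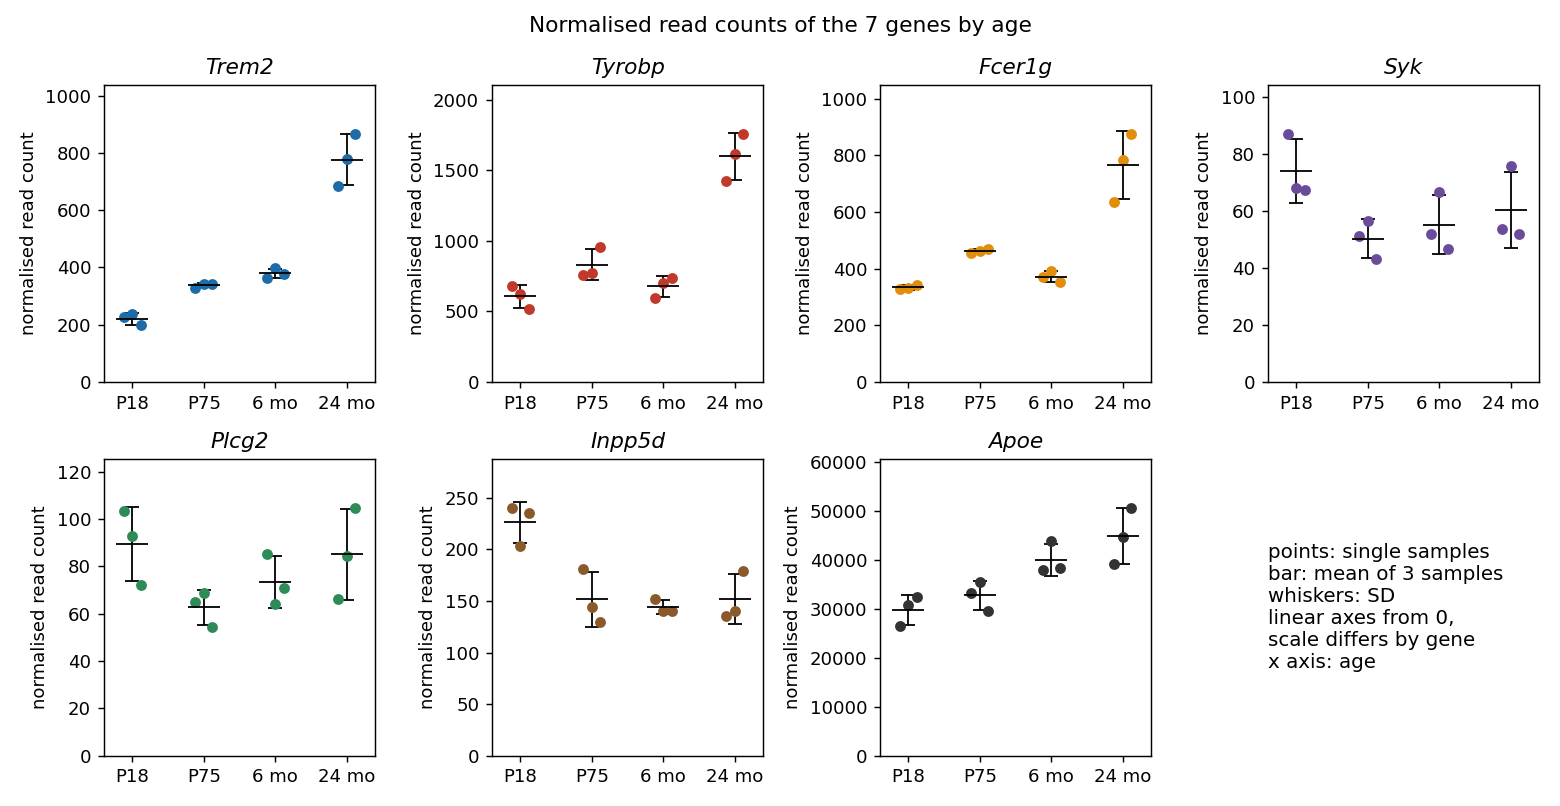
Normalised read counts of the 7 members in each sample (points) by age, with the mean (horizontal bar) and SD (whiskers) of 3 samples, 1 panel per gene with its own linear axis from 0. Trem2, Tyrobp and Fcer1g reached 686 to 865, 1424 to 1754 and 636 to 874 at 24 months, while Syk, Plcg2 and Inpp5d were highest on average at P18.

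The count ratios of Tyrobp and of Apoe to Trem2 differed between the ages. They are ratios of RNA, and the protein complex was not measured. There were 2.75 ± 0.22 Tyrobp counts per Trem2 count in the P18 samples, 2.45 ± 0.30 in those of P75, 1.78 ± 0.17 in the 6-month samples and 2.06 ± 0.03 in the 24-month samples (SD, n = 3 each; exact permutation F test over all 15400 partitions of the samples into the 4 ages, p = 0.000584, adjusted over 3 ratios 0.000877). The Fcer1g to Tyrobp ratio averaged 0.557, 0.563, 0.554 and 0.477 at the 4 ages and did not pass the same exact test (p = 0.383, adjusted 0.383). Apoe gave 136 ± 24.2 counts per Trem2 count in the P18 samples, 96.8 ± 9.02 in those of P75, 105 ± 4.59 in the 6-month samples and 57.6 ± 0.70 in the 24-month samples (SD, n = 3 each; exact permutation F test, p = 0.00013, adjusted 0.00039). The smallest p these permutations can give is 6.49e-05. Every 24-month sample, within 57 to 58.4, lay below every sample of the other ages in the Apoe to Trem2 ratio.

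Syk, the kinase recruited to the phosphorylated ITAM, was highest at P18. It had 86.7, 67.8 and 67.3 normalised counts in the P18 samples, 51.1, 56.6 and 43.1 in those of P75, 52.0, 66.6 and 46.7 in the 6-month samples, and 53.5, 75.7 and 51.8 in the 24-month samples. The P18 samples lay above all P75 and 6-month samples, and 1 of the 24-month samples reached into their range. At P75 Syk averaged 50.3 ± 6.77 normalised counts, against 73.9 ± 11.1 at P18 (SD, n = 3 each), a fall of 0.55 ± 0.20 on the log2 scale (log2 fold change -0.55, limma adjusted p = 0.0365). That call was lost without a filter on low values (adjusted p = 0.0610), with DESeq2 on recovered reads (0.0505), and without P18 replicate 1 (0.143), P75 replicate 1 (0.0664) or P75 replicate 3 (0.133). At 24 months against 6 months its log2 fold change was 0.12 ± 0.20, with a 95% interval of -0.30 to 0.54 (limma adjusted p = 0.701).

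Plcg2, the phospholipase that makes the calcium-releasing messenger below Syk, gave a like picture with wide errors. It had 103, 92.7 and 72.3 normalised counts in the P18 samples, 65.1, 68.6 and 54.2 in those of P75, 85.3, 63.9 and 71.0 in the 6-month samples, and 66.4, 84.3 and 105 in the 24-month samples. All P75 samples were below all P18 samples, whereas the 24-month samples ran from below to above all P18 samples. Plcg2 averaged 62.6 ± 7.54 normalised counts at P75, against 89.5 ± 15.8 at P18 (SD, n = 3 each; log2 fold change -0.50 ± 0.19, limma adjusted p = 0.0478). This call sat at the threshold. It was lost without a filter on low values (adjusted p = 0.0762), with DESeq2 (0.0579), with only those ages in the model (0.0591), and when any of 8 libraries was left out: P18 replicate 1 or 2, any of the P75 replicates, 6 months replicate 2 or 3, or 24 months replicate 2 (0.0528 to 0.171). At 24 months against 6 months the log2 fold change of 0.20 ± 0.19 did not pass (95% interval -0.21 to 0.60, limma adjusted p = 0.501).

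Inpp5d, the SHIP1 phosphatase that brakes the pathway, fell between P18 and P75 and showed no further call. It had 240, 203 and 235 normalised counts in the P18 samples, 181, 145 and 129 in those of P75, 152, 140.2 and 140.1 in the 6-month samples, and 136, 141 and 180 in the 24-month samples. Every P18 sample was above every later sample. It averaged 152 ± 26.7 normalised counts at P75, against 226 ± 19.9 at P18 (SD, n = 3 each; log2 fold change -0.58 ± 0.14, limma adjusted p = 0.00418). At 24 months it was still lower than at P18 (log2 fold change -0.58 ± 0.14, limma adjusted p = 0.00227), and against 6 months the log2 fold change was 0.07 ± 0.14 (95% interval -0.24 to 0.37, limma adjusted p = 0.789).

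Between P75 and P18, 6 of the 7 members passed the test, 3 higher and 3 lower, where 40.4% of all genes tested were called, 21.7% higher and 18.7% lower. The receptor and adaptors made up the rise, and the kinase, the phospholipase and the phosphatase the fall.

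Apoe, the lipid-carrying ligand, was the most abundant member and was higher at 24 months than at P18, with no call at any single step. It had 26379, 30744 and 32284 normalised counts in the P18 samples, 33178, 35354 and 29540 in those of P75, 37837, 43715 and 38213 in the 6-month samples, and 39102, 44704 and 50491 in the 24-month samples. P18 and P75 overlapped, all 6-month samples exceeded them, and the 24-month samples overlapped those of 6 months. At 24 months Apoe averaged 44766 ± 5695 normalised counts, against 29802 ± 3063 at P18 (SD, n = 3 each), 1.5-fold higher (log2 fold change 0.58 ± 0.14, limma adjusted p = 0.00162). Against 6 months the log2 fold change at 24 months was 0.16 ± 0.14 (95% interval -0.13 to 0.46, limma adjusted p = 0.441). The step of 0.29 ± 0.14 at 6 months against P75 did not pass in limma (adjusted p = 0.0921) but passed with quantile normalisation (log2 fold change 0.45, adjusted p = 0.0118) and with DESeq2 (0.28, adjusted p = 0.0285).

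Over the whole span, 4 members were higher at 24 months than at P18 (Trem2, Tyrobp, Fcer1g and Apoe), Inpp5d was lower, and Syk and Plcg2 did not pass, where 62.5% of all genes tested were called, 32% higher and 30.5% lower. Tyrobp was 2.64-fold higher (log2 fold change 1.40 ± 0.12, limma adjusted p = 5.94e-08) and Fcer1g 2.27-fold higher (1.18 ± 0.11, adjusted p = 6.9e-08). Syk differed by -0.30 ± 0.20 (adjusted p = 0.197) and Plcg2 by -0.08 ± 0.19 (adjusted p = 0.737) on the log2 scale. In a test for any difference among the 4 ages, 5 of 7 members passed, against 77.4% of all genes tested, with Syk (limma adjusted p = 0.0881) and Plcg2 (0.0968) short of the threshold.

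**Figure D2:**
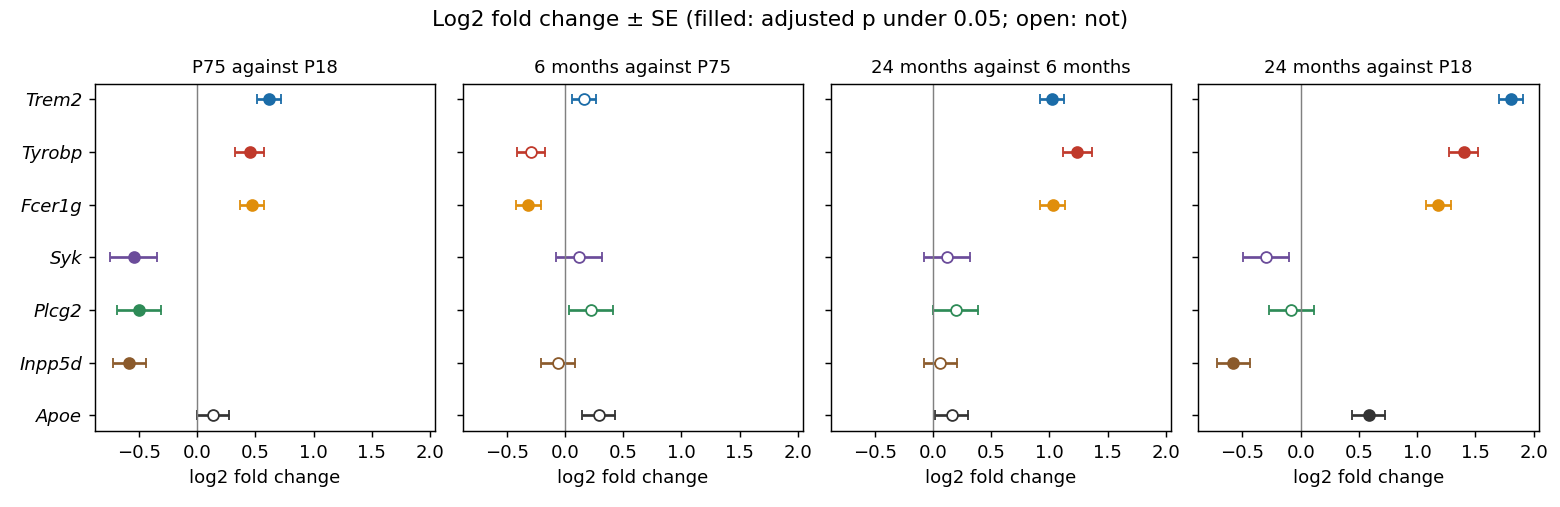
Log2 fold change of each member (points, filled where the limma adjusted p was under 0.05) with its SE (bars), for the later age over the earlier in the 4 comparisons. At 24 months against 6 months Trem2, Tyrobp and Fcer1g stand at 1.03, 1.24 and 1.03, and Syk, Plcg2, Inpp5d and Apoe, all open, between 0.07 and 0.20.

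Microglial markers rose with Trem2, Tyrobp and Fcer1g at 24 months, but the markers and these genes did not move together at every step. At 6 months against P75, 9 of the 21 microglial identity genes rose and 1 fell (all genes tested: 27.1% higher, 25.4% lower), while Fcer1g fell. At 24 months against 6 months, 10 of the 21 rose, none fell and 11 did not pass (all genes tested: 10.8% higher, 8.34% lower). The median log2 fold change of the 21 was 0.38, beside 0.03 over all genes tested. Those that rose included Ctss, a lysosomal cathepsin (0.95), and C1qa and C1qb, subunits of the first complement component (0.82 and 0.92), whereas the growth factor receptor Csf1r stood at 0.00. The share of each member in the microglial marker sum was therefore also followed. Trem2 made up 2.82% of that sum at 24 months (range 2.80% to 2.86%), against 2.14% at 6 months (1.93% to 2.30%). At the younger ages the Trem2 share was 2.16% (P18) and 2.33% (P75). Tyrobp made up 5.92%, 5.69%, 3.84% and 5.82% at P18, P75, 6 months and 24 months, and Fcer1g 3.29%, 3.19%, 2.10% and 2.77%, so that for both adaptors 6 months was the lowest age. Neither Tyrobp, at 5.79% to 5.84% against 3.14% to 4.51%, nor Fcer1g, at 2.61% to 2.89% against 1.97% to 2.18%, overlapped between 24 months and 6 months.

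With the log2 of the marker sum subtracted in every sample, all 3 were higher at 24 months than at 6 months. The log2 differences were 0.40 ± 0.13 for Trem2 (limma adjusted p = 0.00914), 0.61 ± 0.13 for Tyrobp (0.000473) and 0.40 ± 0.13 for Fcer1g (0.0100). On this scale 0.507% of the genes tested were called higher and 70.8% lower. Without 6 months replicate 1 the Trem2 difference was 0.32 (limma adjusted p = 0.0508). When the marker list was shortened, with C1qa, C1qb, C1qc and Ctss among the genes taken out, the differences were 0.75 for Trem2, 0.96 for Tyrobp and 0.75 for Fcer1g (adjusted p = 0.00397, 0.000843 and 0.00578). Against P18 the marker-relative difference at 24 months was 0.38 ± 0.13 for Trem2 (adjusted p = 0.00846), -0.03 ± 0.13 for Tyrobp (0.861) and -0.24 ± 0.13 for Fcer1g (0.0912), where 2.24% of genes tested were called higher and 84.7% lower. That of Tyrobp turned to 0.43 with the shortened list (adjusted p = 0.0142).

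Relative to the microglial markers most genes were lower at 24 months, 84.7% of those tested against P18 and 70.8% against 6 months, and the calls of the intracellular members and Apoe are to be read against those shares. Their marker-relative log2 differences at 24 months against P18 were -1.72 ± 0.22 for Syk (limma adjusted p = 1.84e-07), -1.50 ± 0.19 for Plcg2 (1.69e-07), -2.0 ± 0.17 for Inpp5d (2.47e-10) and -0.84 ± 0.19 for Apoe (0.00027). Those of Syk, Plcg2 and Inpp5d also passed with the shortened list, at -1.27, -1.05 and -1.55, and that of Apoe did not (-0.39, adjusted p = 0.0979). At 24 months against 6 months Inpp5d was at -0.56 ± 0.17 (limma adjusted p = 0.00652), Apoe at -0.47 ± 0.19 (0.0322), Syk at -0.50 ± 0.22 (0.0488) and Plcg2 at -0.43 ± 0.19 (0.0519). With the shortened list none of these passed (-0.21, -0.12, -0.16 and -0.08, adjusted p = 0.440, 0.723, 0.668 and 0.802). The Syk call was also lost when any one of P18 replicates 1 and 2, P75 replicates 1 and 2, 6 months replicates 2 and 3, and 24 months replicates 1 and 3 was left out (adjusted p up to 0.231). The Apoe call was lost without 6 months replicate 2 or 3 or any 24-month replicate (up to 0.103), and Plcg2 passed without P18 replicate 3, P75 replicate 3, 6 months replicate 2 or 24 months replicate 3 (0.0392 to 0.0451).

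Against the astrocyte marker sum, Apoe made up 19.9%, 20.4%, 24.9% and 28.4% at P18, P75, 6 months and 24 months. This was 0.53 ± 0.17 higher at 24 months than at P18 on the log2 scale (limma adjusted p = 0.0105; 27.6% of genes tested were called higher). Without P18 replicate 1 the difference was 0.40 (adjusted p = 0.0765), and with quantile normalisation it was 0.40 (adjusted p = 0.0526). At 24 months against 6 months the difference of 0.19 ± 0.17 did not pass (limma adjusted p = 0.483).

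**Figure D3:**
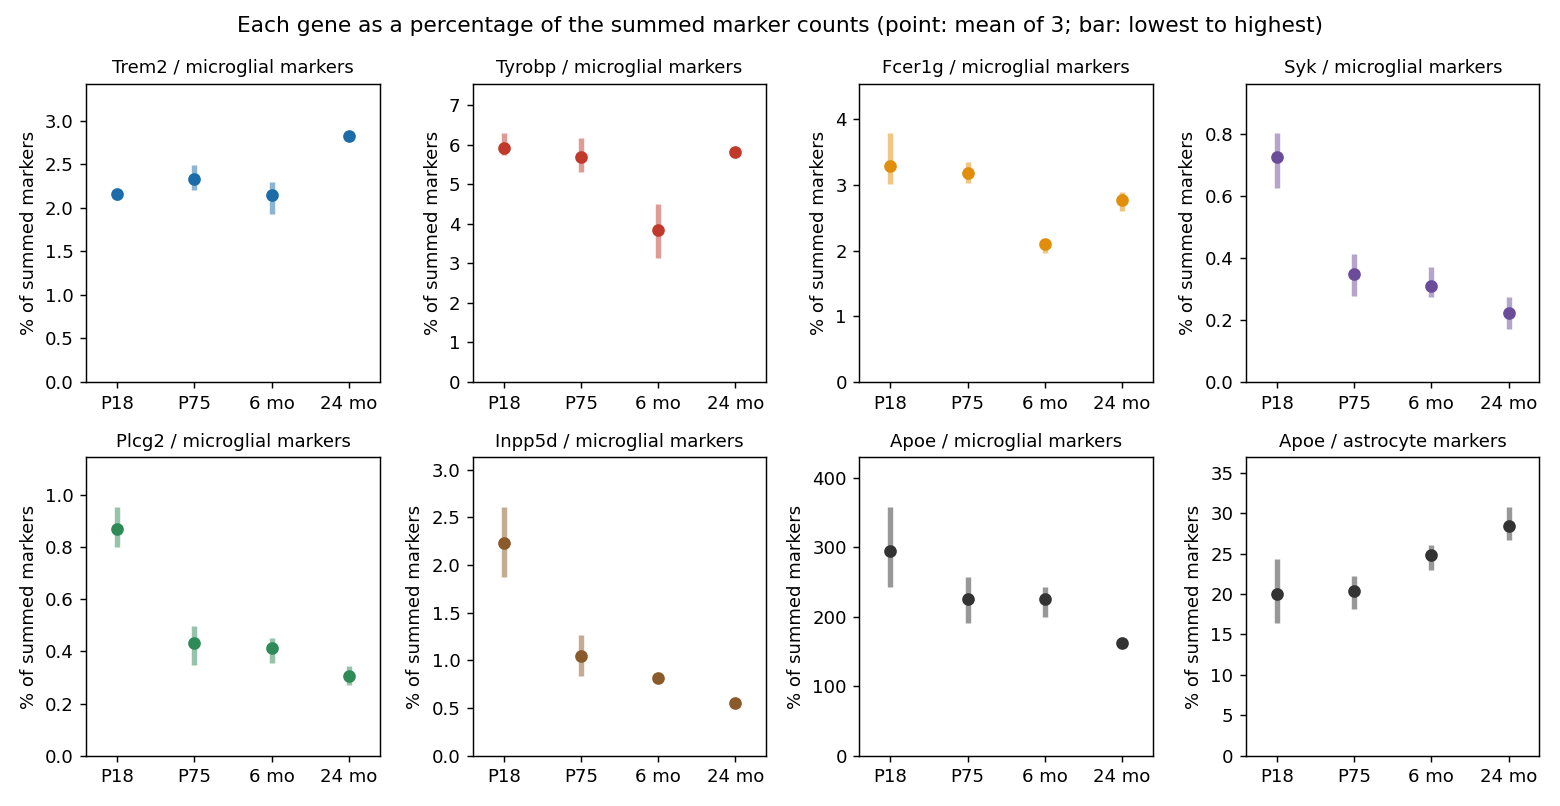
Each member as a percent of the summed microglial markers, and Apoe also as a percent of the summed astrocyte markers, by age (point, mean of 3 samples; bar, lowest to highest sample). Trem2 held 2.80% to 2.86% of the microglial sum at 24 months and 1.93% to 2.30% at 6 months, and Inpp5d averaged 0.552% at 24 months and 2.23% at P18.

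Markers of blood myeloid cells, which also carry Tyrobp and Fcer1g, were lower at 6 months than at P75 and higher again at 24 months. Their 10 genes, none at 0 in all samples, summed to 46.3 to 150 normalised counts in the P18 samples, 86.2 to 209 in those of P75, 26.3 to 45.5 in the 6-month samples and 72.2 to 338 in the 24-month samples. The neutrophil proteins S100a8 and S100a9, the only 2 abundant enough to be tested, had log2 fold changes of -2.71 and -2.37 at 6 months against P75 (limma adjusted p = 0.00290 and 0.000424) and of 2.90 and 2.46 at 24 months against 6 months (0.00879 and 0.00286). Neither S100a8 nor S100a9 passed at P75 against P18 (limma adjusted p = 0.387 and 0.128) or at 24 months against P18 (0.226 and 0.0702). Both adaptors were called higher in those 2 comparisons. Among the 24-month samples the blood myeloid sum was 164, 338 and 72.2. It was lowest in replicate 3, in which Trem2, Tyrobp, Fcer1g and Apoe were each at their highest. Markers of border macrophages, which line vessels and meninges, summed to 454 to 542 at 24 months, above every 6-month (396 to 409) and P75 sample (363 to 377). The P18 samples, at 410 to 512, overlapped those of 24 months. Of the 8 border macrophage genes, 1 rose and none fell at 24 months against 6 months, and edgeR called 3 higher. Of all genes tested, 10.8% were called higher and 8.34% lower there. Lymphocyte markers summed to 134 to 251, and mast cell markers to 0 to 11.4, over all 12 samples. Cd4 made up 83.6% of the lymphocyte sum and was the only 1 of its 11 genes abundant enough to be tested. The part of these cells in the results was not tested.

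A list made mainly of receptors other than Trem2 that use Tyrobp or Fcer1g was next examined. It also holds the adaptors Hcst (DAP10) and Cd247 (CD3ζ). Clec7a and Treml2 are counted in it too, although they are not known to need Tyrobp or Fcer1g. Of 26 genes found in the table, 14 were abundant enough to test, and Sirpb1a, Gp6 and Pira2 were listed at 0 in every sample. Siglech, Csf1r and Itgam stand among the microglial identity genes too. At 24 months against 6 months 4 rose and none fell (median log2 fold change 0.59, beside 0.03 over all genes tested). Against P18 12 rose, Hcst among them, and none fell (median 1.13, beside -0.01). Of all genes tested, 10.8% were called higher at 24 months against 6 months and 32% against P18. Clec7a (Dectin-1), a lectin receptor for fungal glucans, averaged 152 ± 22.5 normalised counts at 24 months, against 19.4 ± 8.58 at 6 months (SD, n = 3 each; log2 fold change 2.98, limma adjusted p = 3.1e-05). Itgb2, the integrin chain CD18, rose by 0.89 ± 0.17, with Fcgr3, an Fc receptor (0.68), and the lectin Clec5a (0.65) the other two, both named after their values were seen. Csf1r and the integrin chain Itgam had risen earlier, by 0.78 and 0.70 at 6 months against P75. There 7 of 14 rose, beside 27.1% of all genes tested. At 24 months against 6 months Csf1r and Itgam stood at 0.00 and 0.11. With edgeR on recovered reads, 7 genes of this list passed as higher at 24 months against 6 months.

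Kinases around the ITAM, of the Src, Syk and Tec families and with Ptk2b, a focal adhesion kinase relative, were counted as 1 list. Of 10 tested of 14 found, none rose and 1 fell at 24 months against 6 months (median log2 fold change 0.00), where 10.8% of all genes tested were called higher and 8.34% lower, so that with 10 genes the counts are near those shares. That 1 was Fyn, a Src-family kinase also active in oligodendrocytes (-0.24, limma adjusted p = 0.0433), and edgeR called none lower. Fyn had fallen most between P18 and P75, averaging 2907 ± 209 normalised counts at P75, against 5807 ± 72.2 at P18 (SD, n = 3 each; log2 fold change -1.0). Lyn, the Src-family kinase typical of myeloid cells, was lower at P75 than at P18 (-0.35) and higher at 6 months than at P75 (0.62), and stood at 0.01 at 24 months against 6 months. In all, 3 of 10 fell and none rose at P75 against P18, among them Src (-0.43). The median log2 fold change was -0.34, beside 0.02 over all genes tested, of which 18.7% were called lower and 21.7% higher. Yes1, another member of that family, was lower at 24 months than at P18 (-0.48).

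Scaffold and exchange adaptors, which couple Syk to its effectors, gave a mixed picture, as did the lipid kinase, phospholipase and protein kinase C branch. Of 19 scaffolds tested, 4 rose and none fell at 24 months against 6 months (all genes tested: 10.8% higher, 8.34% lower). The median log2 fold change was 0.26, and 2 rose when a value of at least 50 was required. Lat2, a myeloid membrane scaffold, rose by 0.71 ± 0.19 there (limma adjusted p = 0.0162), and Gab2, a docking protein of the phosphoinositide kinase, by 1.12 ± 0.22 at P75 against P18. The linkers Grb2 and Nck1 fell by 0.31 and 0.37 at P75 against P18. Of 28 genes of the lipid kinase branch, 2 rose and 4 fell at 24 months against 6 months (median -0.09, beside 0.03 over all genes tested). With 28 genes these counts are near the shares over all genes. Against P18 8 rose and 16 fell (median -0.32, beside -0.01). Of all genes tested, 32% were called higher there, which the 8 are near, and 30.5% lower. Itpr3, a calcium release channel, rose by 0.82 ± 0.19 at 24 months against 6 months, while Itpr1, the form abundant in neurons, rose by 1.2 ± 0.12 at P75 against P18. Pik3ca, a catalytic subunit of phosphoinositide 3-kinase, fell by 0.62 at 6 months against P75, and the kinase Mapk3 by 0.73 at P75 against P18.

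Brakes on ITAM signalling other than Inpp5d rose in part. Their list also holds Lilra5, an activating receptor, which did not pass at 24 months against 6 months, and Dok1, which rose there and is counted among the scaffolds too. Of 19 tested of 21 found, 8 rose and none fell at 24 months against 6 months (all genes tested: 10.8% higher, 8.34% lower). The median log2 fold change was 0.44, beside 0.03 over all genes tested. With a value of at least 50 required, 4 rose, and edgeR called 1 lower. Fcgr2b, the inhibitory Fc receptor, averaged 212 ± 42.7 normalised counts at 24 months, against 100 ± 13.3 at 6 months (SD, n = 3 each; log2 fold change 1.07, limma adjusted p = 0.00121). Ptpn22, a phosphatase of immune cells, rose by 1.43 at P75 against P18, fell by 0.73 at 6 months against P75 and rose by 0.97 at 24 months against 6 months. Sirpa, the receptor for CD47, had risen by 0.60 at P75 against P18 and by 0.41 at 6 months against P75, and stood at 0.14 at 24 months against 6 months. Inppl1 (SHIP2), the close relative of Inpp5d, averaged 359 ± 47.9 normalised counts at P75, against 733 ± 75.5 at P18 (SD, n = 3 each; log2 fold change -1.03), and differed by -0.11 at 24 months against 6 months. The log2 fold changes of the pair were thus -0.58 for Inpp5d and -1.03 for Inppl1 at the first step, and 0.07 and -0.11 at the last.

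Genes for the proteases that cut Trem2 from the cell surface and its remaining stub, with their regulators, rose mostly between P75 and 6 months. Of 11 tested, 8 rose and 1 fell at 6 months against P75 (all genes tested: 27.1% higher, 25.4% lower). The median log2 fold change was 0.49 there, beside 0.00 over all genes tested. At 24 months against 6 months, 2 rose and none fell (median 0.09; all genes tested: 10.8% higher, 8.34% lower). Adam10, a main sheddase of Trem2, averaged 1230, 1939, 2372 and 2919 normalised counts at P18, P75, 6 months and 24 months, and rose at each step (log2 fold changes 0.65, 0.29 and 0.30; limma adjusted p for the last 0.0321). Aph1b and Ncstn, subunits of the γ-secretase that cleaves the stub, rose by 1.34 and 0.89 at 6 months against P75 and stood at -0.09 and 0.07 at 24 months against 6 months.

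Genes of lipoproteins and sterol efflux, the setting of Apoe, also rose mainly before 6 months. Of 27 tested of 30 found, 13 rose and 3 fell at P75 against P18 (all genes tested: 21.7% higher, 18.7% lower). At 6 months against P75, 15 rose and 3 fell (all genes: 27.1% and 25.4%). At 24 months against 6 months, 5 rose and none fell (all genes: 10.8% and 8.34%). The median log2 fold changes were 0.37, 0.36 and 0.12, beside 0.02, 0.00 and 0.03 over all genes tested. Abcg1, a cholesterol exporter, rose by 0.77 and 0.64 at the first and second steps and stood at 0.17 at the third. Lrpap1, a chaperone of lipoprotein receptors, rose by 0.61 and 0.70, and Npc1, the lysosomal cholesterol transporter, by 0.42 and 1.04. Apod, a lipid carrier of glial cells, rose at all 3 steps and averaged 27162 ± 1274 normalised counts at 24 months, against 6396 ± 1429 at P18 (SD, n = 3 each; log2 fold change 2.11, limma adjusted p = 4.43e-09).

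Genes of the microglial state known from mouse models to depend on Trem2 had the largest median of the pathway lists at 24 months against 6 months. Of 22 tested, 15 rose and 1 fell (median log2 fold change 0.65, beside 0.03 over all genes tested). Against P18 21 rose and none fell (median 1.27, beside -0.01). Of all genes tested, 10.8% were called higher and 8.34% lower at 24 months against 6 months, and 32% and 30.5% against P18. Clec7a, Lilrb4 and Lpl of this list stand in the earlier lists too. Spp1 (osteopontin), a secreted phosphoprotein also made outside microglia, averaged 3774 ± 85.6 normalised counts at 24 months, against 2328 ± 191 at 6 months (SD, n = 3 each; log2 fold change 0.70, limma adjusted p = 0.000219). The lysosomal cathepsins Ctsz and Ctsl rose by 0.60 and 0.49 at that step, and Timp2, a protease inhibitor, differed by -0.15 after a rise of 1.08 at 6 months against P75. Named after their values were seen, the protease inhibitor Cst7 rose by 3.41 and the integrin chain Itgax by 2.44, and the 1 gene lower was the transcription factor Hif1a (-0.34). The microglial marker sum moved in the same direction, 24374 to 30276 at 24 months and 16414 to 18902 at 6 months, and its part in these counts was not tested.

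**Figure D4:**
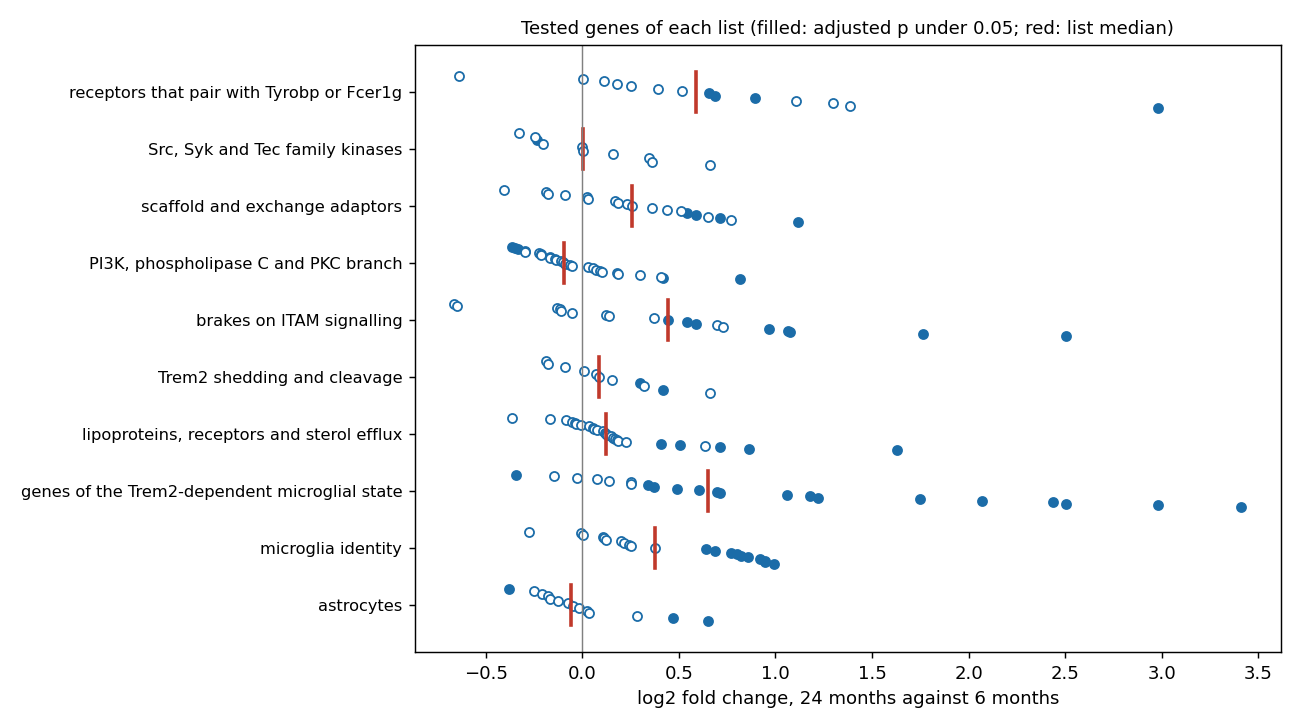
Log2 fold change at 24 months over 6 months of every tested gene in the pathway lists and in the microglial and astrocyte marker lists (points, filled where the limma adjusted p was under 0.05; short vertical bar, median of the list; long line, 0). The list of the Trem2-dependent state has the median furthest to the right, 0.65, and the kinase list has its median at 0.00.

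The genes whose profile over the 12 samples was most like that of a member were named by Pearson's r on the log2 scale, as a description of samples that share libraries and ages. For Trem2 these were B2m, the light chain of class I molecules (0.991), the leukocyte phosphatase Ptprc (0.990), H2-K1, a class I heavy chain that may share reads with its paralogs (0.976), Ctss (0.976) and the ceramidase Acer3 (0.975). For Tyrobp they were Lyz1, a lysozyme with a close copy (0.963), Tlr2, a receptor for bacterial lipoproteins (0.962), the mitochondrial protein Tspo (0.960), Fcer1g (0.959) and the astrocyte connexin Gjb6 (0.957). For Apoe they were Nat14 (0.966), the endoplasmic reticulum retention receptor Kdelr1 (0.964), Fam73b (0.962), Pgap3 (0.961) and the carbonic anhydrase Car4 (0.961). Between members, r was 0.923 for Trem2 with Tyrobp, 0.920 with Fcer1g, 0.838 with Apoe and -0.58 with Inpp5d.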

How the data were processed

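RNA-seq of 12 samples, 3 at each of 4 ages, was analysed from 1 deposited table. Per the submitters' processing notes, the authors used TopHat, HTSeq and DESeq with the mouse build mm9, and no version is given in the sources used here. The deposited values are a depth-scaled signal, that is read counts divided by the authors' size factor of each sample, and are called normalised counts here. In each sample 100% of the values were whole multiples of 1 read's worth, within a tolerance of 0.0061, so reads were recovered. The totals are the depths given above. RNA extraction and library kit are not described in the labels, and whether counting used strand is not given in the sources used here. The gene of Plcg2 overlaps another on the opposite strand, not in its exons.

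Genes with a value of at least 10 in at least 3 samples were tested (14987 of 21937) on log2(value + 1), with limma 3.58.1 in R 4.3.3, 1 mean per age, a mean-variance trend and Benjamini-Hochberg adjustment over all genes tested, at 0.05. Fold changes are on that scale and understate those of low genes. The moderated F test covered the 3 neighbouring comparisons. For marker-relative values, the log2 of the marker sum was subtracted in every sample and the same model fitted to all genes. Ratios were tested with an exact permutation F test, which counts differences in either direction. The limma and permutation code was also run on simulated data, and the outcome of those runs is not given here. Because the values are not counts, edgeR 4.0.16 and DESeq2 1.42.0 on the recovered reads were alternatives. edgeR called 5983 genes at P75 against P18, 7956 at 6 months against P75, 3183 at 24 months against 6 months and 9345 at 24 months against P18, and limma 6051, 7859, 2876 and 9367. Other alternatives were other pseudocounts, filters and normalisations, only the ages compared, a replicate block, a shortened microglial list and leaving out each sample.

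The members and gene lists were chosen with earlier results of these data known. All 7 members are named, and from each pathway list and the microglial list the 4 tested genes with the lowest adjusted p over the ages, unless stated. The other marker lists are given mainly by their sums. Of these list genes, 2 are not reported here. Likeness used tested genes with a mean of at least 50. Of 262 list entries 1 was not found (Apoj, another name of Clu) and 2 matched through a RefSeq synonym. Exon lengths come from GENCODE M21, not from the annotation the authors counted on. Counting errors cover sampling of reads only.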

Additional observations from a re-analysis of the deposited data

How the results depend on the processing

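Of 575 values under alternatives that keep all samples, 547 were counted as unchanged, as were 667 of 708 with 1 sample left out. Unchanged means on the same side of the threshold or, for numbers of genes called, within a set factor. A change of sign was not counted where neither value passed. Apoe at P75 against P18, for instance, ran from -0.11 to 0.13 under alternatives that keep all samples. The rises of Trem2, Tyrobp and Fcer1g at 24 months against 6 months passed under every alternative run, with log2 fold changes of 1.02 to 1.05, 1.23 to 1.25 and 1.02 to 1.05, and of 0.94 to 1.11, 1.15 to 1.32 and 0.93 to 1.16 with 1 sample left out. Quantile normalisation moved the median of all genes at 24 months against P18 to -0.11, beside -0.01. With it the Syk difference there was -0.58, which is further from 0 than that median, and passed (limma adjusted p = 0.0183), Syk passed over all ages (adjusted p = 0.0229), and the 6-month against P75 differences of Tyrobp (-0.30) and Apoe (0.45) passed. With it Plcg2 relative to microglia at 24 months against 6 months passed (-0.55), and Apoe relative to astrocytes at 24 months against P18 did not (0.40).

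The P75 against P18 fall of Syk missed the threshold with no filter (-0.55) and DESeq2 (-0.55), and that of Plcg2 with no filter, DESeq2 or only the 2 ages (-0.50 each). Tyrobp at 6 months against P75 passed with only the 2 ages (-0.29), and Apoe with DESeq2 (0.28). Relative to microglia at 24 months against 6 months, Syk did not pass with a pseudocount of 0.5, no filter, edgeR or DESeq2 (-0.50 each), Apoe did not with no filter (-0.47), and Plcg2 passed with a pseudocount of 5 (-0.44), a minimum of 50 (-0.43) or only the 2 ages (-0.43). With the shortened microglial list Syk (-0.16), Inpp5d (-0.21) and Apoe (-0.12) did not pass there, and at 24 months against P18 Apoe did not (-0.39) and Tyrobp turned to 0.43, against -0.03 with the whole list. Shortening the list changes the sum that is subtracted from every gene, so within a comparison all members moved up by the same amount. Trem2, for example, went from 0.38 to 0.84 at 24 months against P18. The cause of the other changes was not tested.

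With 1 sample left out, genes called at 24 months against 6 months ranged from 1230 (without 24 months replicate 2) to 3966, and were 1279 and 1495 without 6 months replicate 1 or 2 and 1510 without 24 months replicate 1. The adjusted p of Plcg2 over all ages ranged from 0.0335 to 0.272. Log2 differences ranged from -0.63 to -0.43 for Syk and -0.64 to -0.39 for Plcg2 at P75 against P18, and from -0.36 to -0.18 for Tyrobp and -0.35 to -0.28 for Fcer1g at 6 months against P75. Relative to microglia at 24 months against 6 months they ranged from 0.32 to 0.45 for Trem2, -0.66 to -0.33 for Syk, -0.53 to -0.35 for Plcg2 and -0.55 to -0.41 for Apoe, and for Apoe relative to astrocytes at 24 months against P18 from 0.40 to 0.68.

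Replicate numbers are shared between ages, but same-numbered samples did not deviate together (correlations of -0.185 to 0.165), and in 10 of 36 comparisons with another age the closest sample had the same number. With the replicate number as a block, 2583 genes were called at 24 months against 6 months, 9186 at 24 months against P18, 7656 at 6 months against P75 and 5871 at P75 against P18. Under this block the Plcg2 fall at P75 against P18 (-0.50) and the Syk difference relative to microglia at 24 months against 6 months (-0.50) did not pass, and no other member's call changed. Depth is lowest for Syk, Plcg2 and Inpp5d, with counting errors of 6.98% to 14.1% beside a spread between replicates (coefficient of variation) of 4.70% to 22.5%.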
